A study of Mus musculus with 69 samples.

Results

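The 10 genes described here are the 4 mouse FoxO transcription factors (Foxo1, Foxo3, Foxo4 and Foxo6) and 6 genes that belong to the insulin and starvation response around them (Irs2, Pik3ip1, Ddit4, Sesn1, Fbxo32 and Cdkn1b). They were taken by gene symbol from a table of 24411 genes, and all 10 were among the 21175 genes tested. Foxo3 was chosen by its measured rise in volume depletion, so its values in volume depletion of either sex, and in the comparisons of sexes and Cre drivers built on them, are given as a description with no test. That left 9 members for a test in those comparisons and 10 in all others. The other members, and the lists of genes used below, were chosen with earlier results of these data known. Their counts beside the share of all genes are therefore descriptions of chosen sets.

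The study asked how cells of the distal nephron respond to ischemia and to volume depletion, which both raise serum creatinine, without taking the kidney apart. Mice carried one Rosa26 allele (Rosa Uprt/+) with a stop-floxed Toxoplasma gondii uracil phosphoribosyltransferase, and a Cre driver removed the stop in chosen cells. Hoxb7Cre labels the collecting duct, and Atp6v1b1Cre (spelled Atp6b1v1 in the labels) labels intercalated cells and cells that carry both intercalated and principal cell genes. The enzyme lets a cell build 4-thiouracil into RNA, so that RNA made in those cells after 4-thiouracil was given (430 mg/kg, 4 h before the kidney was taken) could be pulled down from the RNA of a whole kidney. Control, ischemia and volume depletion were compared at 5.5 months of age. Control mice had no injury. Mice labelled iAKI had both renal arteries clamped for 10 min and were studied 24 h later. Mice labelled vAKI were kept for 72 h on restricted food and water, so that shortage of food is part of this state. In males there were 4 control, 4 ischemia and 3 volume depletion pulldowns with Hoxb7Cre, and 4, 3 and 4 with Atp6v1b1Cre. In females the numbers were 4, 3 and 4 with Hoxb7Cre and 4, 3 and 3 with Atp6v1b1Cre. Another 5 control pulldowns came from mice of 3 months and 21 libraries held the total RNA of control kidneys, which makes 69 libraries of 12618062 to 30305464 counts each (median 20868430). Every mouse, control mice included, carried the transgene and received 4-thiouracil. The study counts as many mice as there are male pulldowns in each state, both drivers together, and as many control mice of both sexes as there are control pulldowns. For the injured females the sources used here do not say that each library is a separate mouse, and there p-values measure the spread between libraries.

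FoxO proteins are forkhead transcription factors that are held out of the nucleus while insulin or growth factor signals are strong. Insulin receptor substrates carry the signal to PI3 kinase, which activates Akt and the related kinase Sgk1, and these phosphorylate FoxO proteins so that they are retained in the cytoplasm. When nutrients or growth factors are scarce, FoxO proteins return to the nucleus and switch on genes for energy saving, stress resistance, cell cycle arrest, autophagy and protein breakdown, along with Irs2, which restores sensitivity to insulin. Because FoxO activity is set mostly by phosphorylation and location, an mRNA level of a FoxO gene is not a measure of its activity. The other members sit at different points of this circuit. Irs2 is an adaptor below the insulin receptor and Pik3ip1 restrains PI3 kinase. Ddit4 (REDD1) and Sesn1 (sestrin 1) restrain mTORC1, the kinase complex that promotes growth. Fbxo32 (atrogin-1) is the ubiquitin ligase subunit known for muscle wasting during fasting, and Cdkn1b (p27) halts the cell cycle.

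Marker genes were checked against the drivers. The summed level of 6 principal cell markers ran from 2694 to 3499 CPM (counts scaled to the size of the library) in the male Hoxb7Cre control pulldowns, and from 720 to 1314 in total RNA. In the female Hoxb7Cre controls it ran from 1075 to 2477 CPM and overlapped the total RNA. In male Hoxb7Cre pulldowns it ran from 993 to 1231 CPM in ischemia and from 1103 to 1197 in volume depletion, within the range of total RNA. The summed level of 7 intercalated cell markers ran from 886 to 1219 CPM in the male and from 1127 to 1668 in the female Atp6v1b1Cre controls, and from 377 to 679 in total RNA. Markers of other segments were present in every pulldown: 6 proximal tubule markers summed to 823 to 4187 CPM in the male pulldowns, against 7699 to 15468 in total RNA, and none of them was at 0. In bulk RNA, fewer cells of a type and less RNA per cell cannot be told apart. Single libraries stood apart from their groups. On the first principal component of the 500 most variable genes with the members left out (29.5% of variance), the Hoxb7Cre volume depletion female replicate 5 lay at 34.6, beside the males with the same driver and treatment (35.1 to 37.5), while the other 3 females of its group lay between −12.1 and 6.16. The Hoxb7Cre control female replicate 1 lay at −19.4 (the other controls 3.71 to 11.8) and the Atp6v1b1Cre ischemic female replicate 6 at −8.58 (the others −29.4 and −31.5). No library's sex markers went against its label.

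Promoter sequence is shown for Foxo1, Irs2 and Sesn1, the members that passed the test as higher in volume depletion with both drivers in males, and for Foxo3, which was chosen for its rise, since FoxO factors bind a short DNA word found near many of their targets. The windows run from 250 bases before to 50 bases after an annotated start (RefSeq, GRCm38.p6), are printed 5′ to 3′ on the gene's own strand, and carry a match to the words GTAAACA or CAAAACA, read on both strands, in capitals. The windows are Foxo1 at chr3:52268087-52268386 (plus strand), Foxo3 at chr10:42276646-42276945 (minus strand), Irs2 at chr8:11008880-11009179 (minus strand) and Sesn1 at chr10:41810324-41810623 (plus strand).
Foxo1: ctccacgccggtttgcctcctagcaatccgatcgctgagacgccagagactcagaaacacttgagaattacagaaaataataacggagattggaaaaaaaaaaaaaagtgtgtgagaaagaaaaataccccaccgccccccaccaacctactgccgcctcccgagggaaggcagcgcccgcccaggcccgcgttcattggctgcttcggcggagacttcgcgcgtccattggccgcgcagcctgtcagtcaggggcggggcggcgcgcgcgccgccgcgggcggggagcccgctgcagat
Foxo3: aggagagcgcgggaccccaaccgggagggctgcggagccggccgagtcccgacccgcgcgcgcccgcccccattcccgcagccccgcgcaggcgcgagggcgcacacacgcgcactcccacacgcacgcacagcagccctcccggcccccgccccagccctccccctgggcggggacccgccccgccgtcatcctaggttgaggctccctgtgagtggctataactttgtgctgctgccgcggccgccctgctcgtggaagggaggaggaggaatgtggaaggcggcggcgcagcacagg
Irs2: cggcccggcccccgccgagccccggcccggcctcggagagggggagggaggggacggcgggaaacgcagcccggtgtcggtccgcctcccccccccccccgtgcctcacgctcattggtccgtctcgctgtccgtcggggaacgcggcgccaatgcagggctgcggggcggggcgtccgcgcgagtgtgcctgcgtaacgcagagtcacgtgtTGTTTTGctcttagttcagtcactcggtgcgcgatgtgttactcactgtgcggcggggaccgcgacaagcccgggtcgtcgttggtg
Sesn1: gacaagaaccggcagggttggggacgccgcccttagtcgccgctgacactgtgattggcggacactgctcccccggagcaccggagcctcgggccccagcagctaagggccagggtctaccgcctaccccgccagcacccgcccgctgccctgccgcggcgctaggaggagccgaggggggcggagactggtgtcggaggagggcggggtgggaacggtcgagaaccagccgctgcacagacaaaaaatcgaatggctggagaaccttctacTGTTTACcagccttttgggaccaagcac
The Irs2 window holds TGTTTTG, the reverse complement of CAAAACA, with its first base at position −37 from the start. The Sesn1 window holds TGTTTAC, the reverse complement of GTAAACA, with its first base at position 23 from the start. Neither word was found in the Foxo1 or Foxo3 window. The other Sesn1 window given, at chr10:41887189-41887488, holds neither word. Windows were given for 7 of the 10 members (8 windows, Sesn1 having a pair), and 1 of the 8 held GTAAACA and 1 held CAAAACA, against 3.65% and 6.28% of all 32851 windows. A match is a description of letters and not of binding.

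In Hoxb7Cre pulldowns of volume-depleted males, 5 of the 9 members tested rose and 1 fell. Principal cell markers of these pulldowns lay within the range of total RNA. Foxo1, Foxo6, Irs2, Ddit4 and Sesn1 rose, by 3.53-fold (Sesn1) to 10.3-fold (Ddit4), and Foxo4 fell by 3.10-fold. The untested Foxo3 was higher by 6.69-fold. Pik3ip1, Fbxo32 and Cdkn1b did not pass the test. All 6 that passed also reached a log2 fold change of 1 in size, which defines a differentially expressed gene (DEG) here (16.4% of all genes), and all 6 kept their volume depletion libraries clear of the controls (39.5% of all genes). The test was edgeR's quasi-likelihood test, a member being called where the Benjamini-Hochberg adjusted p over all 21175 genes was under 0.05, and at that rule 35.5% of all genes were called (17.9% higher and 17.6% lower). The median log2 fold change over the 9 members tested was 1.82, against 0.00 over all genes. Since the members were chosen with earlier results of these data known, these counts and this median describe a chosen set.

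**Figure D1:**
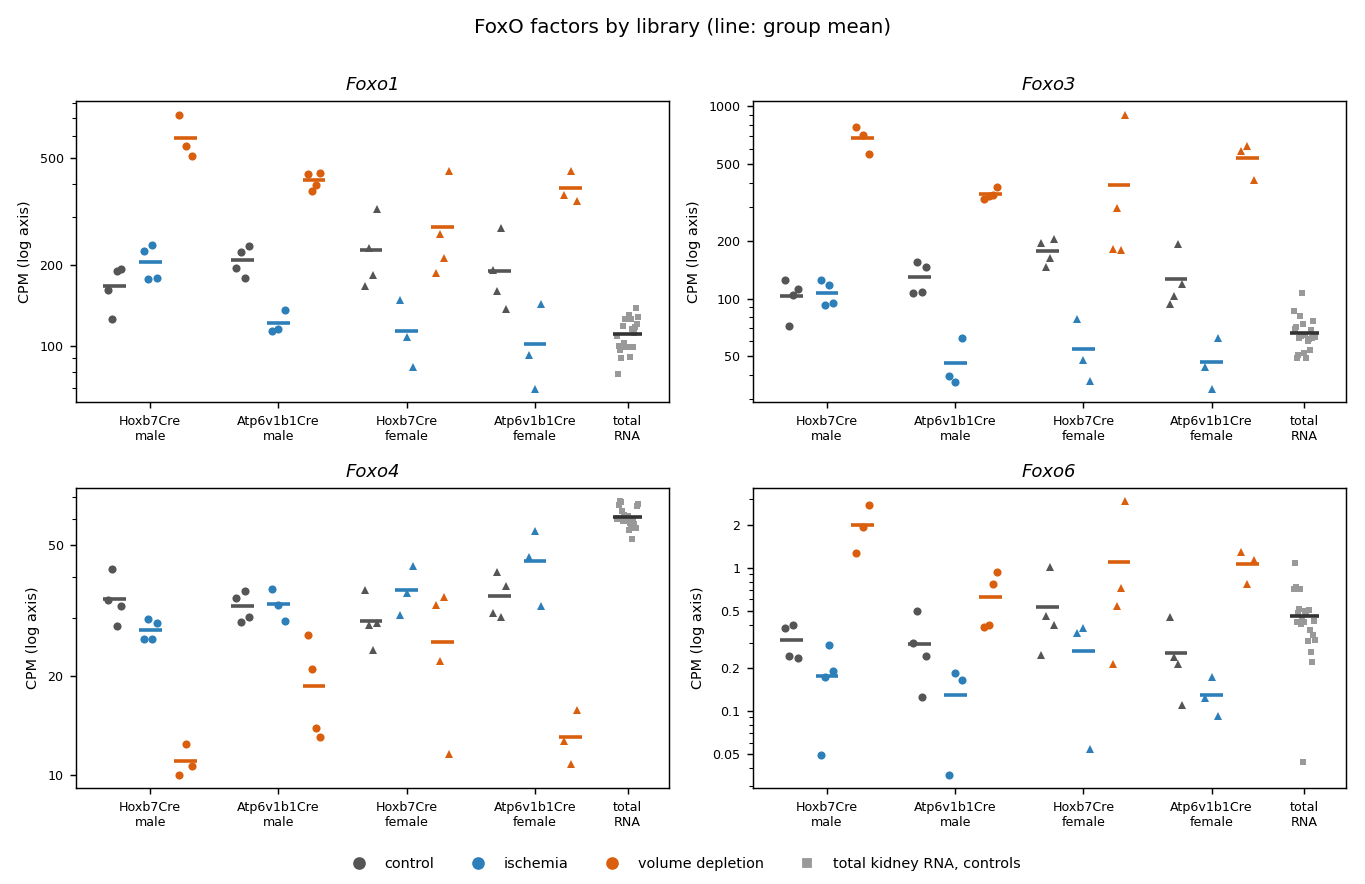
Level of each FoxO gene in CPM (log axis) in every pulldown of 5.5 months, by driver, sex and treatment, 1 point a library (circles males, triangles females) with a line at each group mean, and total RNA of control kidneys as grey squares. Foxo1 and Foxo3 were highest and Foxo4 lowest in volume depletion, except among the Hoxb7Cre females, where most volume depletion libraries lay near the controls and replicate 5 lay farthest from them.

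Foxo3 (chr10:42181845-42276695, minus strand, GRCm38.p6) is the FoxO factor best known for stress resistance, apoptosis and autophagy. In male Hoxb7Cre pulldowns it stood at 124, 71.98, 103.9 and 111 CPM in controls, at 125, 92.5, 117 and 94.3 in ischemia, and at 784, 712 and 562 in volume depletion. The volume depletion libraries lay above all others of this driver, and the ischemia libraries overlapped the controls. With Atp6v1b1Cre it stood at 108.1, 145, 107.2 and 155 CPM in controls, at 39.5, 36.6 and 62.6 in ischemia, and at 328, 342, 345 and 378 in volume depletion. Here the 3 states did not overlap, with ischemia lowest and volume depletion highest. As a description, Foxo3 was higher in volume depletion than in controls by 2.74 ± 0.20 (log2 fold change ± SE) with Hoxb7Cre and by 1.45 ± 0.19 with Atp6v1b1Cre. In ischemia, which did not enter the choice of Foxo3, it fell by 1.48 ± 0.21 on the log2 scale with Atp6v1b1Cre (adjusted p = 4.65e-04), and with Hoxb7Cre the difference was 0.07 ± 0.18 (adjusted p = 0.906, 95% interval −0.32 to 0.46).

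Foxo1 (chr3:52268337-52350109, plus strand), the FoxO factor best known for glucose production and the insulin response, had the same order of states at a smaller size. With Hoxb7Cre in males it stood at 161, 126, 189 and 192 CPM in controls, at 226, 178, 238 and 179 in ischemia, and at 720, 552 and 509 in volume depletion. In Atp6v1b1Cre pulldowns Foxo1 stood at 178, 235, 195 and 223 CPM in controls, at 114, 116 and 136 in ischemia, and at 436, 377, 396 and 440 in volume depletion. The volume depletion libraries lay above every control with both drivers, and the ischemia libraries lay below every control with Atp6v1b1Cre only. Foxo1 rose in volume depletion by 1.83 ± 0.16 with Hoxb7Cre (adjusted p = 5.34e-08) and by 1.00 ± 0.15 with Atp6v1b1Cre (adjusted p = 2.04e-04). In ischemia it fell by 0.78 ± 0.16 with Atp6v1b1Cre (adjusted p = 0.00602), and with Hoxb7Cre the difference of 0.31 ± 0.15 did not pass (adjusted p = 0.245). The fall was 0.72 and did not pass without ischemic replicate 1 (adjusted p = 0.0524).

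Foxo4 (chrX:101254261-101260873, plus strand), a FoxO factor that Akt also phosphorylates, moved against Foxo1 and Foxo3. With Hoxb7Cre in males it stood at 34.05, 42.2, 28.3 and 32.7 CPM in controls, at 26.0, 29.9, 25.8 and 28.97 in ischemia, and at 10.0, 12.4 and 10.7 in volume depletion. Under Atp6v1b1Cre the levels of Foxo4 were 36.3, 30.3, 34.6 and 29.1 CPM in controls, 36.8, 32.8 and 29.4 in ischemia, and 26.6, 21.0, 13.9 and 13.0 in volume depletion. The volume depletion libraries lay below every control with both drivers, and the ischemia libraries overlapped the controls. Foxo4 fell in volume depletion by 1.63 ± 0.20 with Hoxb7Cre (adjusted p = 2.11e-06) and by 0.78 ± 0.17 with Atp6v1b1Cre (adjusted p = 0.00472). In the Atp6v1b1Cre group the libraries of 26.6 and 21.0 CPM came from an earlier library number series than those of 13.9 and 13.0, and within the earlier series the fall was 0.49 on the log2 scale and did not pass (adjusted p = 0.0835). The same libraries also differed in summed proximal tubule markers, at 4187 and 3511 CPM in the earlier series and 1339 and 1080 in the later one (controls 1770 to 3568), and on the first principal component, with scores of 8.31 and 16.1 against 32.3 and 31.6. The part of these facts in the Foxo4 levels was not tested.

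Foxo6 (chr4:120267078-120287261, minus strand), a FoxO factor known mainly from the brain, was close to the limit of detection. It was counted 9, 5, 8 and 5 times in the male Hoxb7Cre controls, 1, 4, 6 and 5 times in ischemia, and 25, 53 and 67 times in volume depletion. With Atp6v1b1Cre the counts were 3, 5, 7 and 15 in controls, 1, 4 and 4 in ischemia, and 11, 12, 12 and 16 in volume depletion. Volume depletion lay above the other states with Hoxb7Cre, where Foxo6 rose by 2.65 ± 0.46 (adjusted p = 1.02e-04), and overlapped the controls with Atp6v1b1Cre, where the difference of 1.00 ± 0.46 did not pass (adjusted p = 0.157). Per kilobase of exon, the control pulldowns of both ages with Hoxb7Cre held 22.1 ± 6.30 CPM of Foxo1, 17.4 ± 5.76 of Foxo3, 9.48 ± 1.63 of Foxo4 and 0.146 ± 0.0911 of Foxo6 (SD, n = 10). Foxo1 and Foxo3 overlapped on this scale, and Foxo6 was far below the others. The study cautions that the pulldown may hold too much uracil-rich RNA, which might affect comparisons between genes such as these.

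Irs2 (chr8:10984681-11008929, minus strand), the adaptor that couples the insulin receptor to PI3 kinase, rose with both drivers. In male Hoxb7Cre pulldowns it stood at 59.4, 94.2, 76.9 and 97.0 CPM in controls, at 53.5, 48.6, 68.1 and 52.6 in ischemia, and at 449, 492 and 345 in volume depletion. With Atp6v1b1Cre, Irs2 stood at 81.2, 107.3, 49.4 and 105.4 CPM in controls, at 23.4, 23.7 and 40.8 in ischemia, and at 292, 280, 515 and 564 in volume depletion. Volume depletion did not overlap the other states with either driver, and ischemia lay below every control with Atp6v1b1Cre. Irs2 rose in volume depletion by 2.39 ± 0.28 with Hoxb7Cre (adjusted p = 1.28e-06) and by 2.28 ± 0.26 with Atp6v1b1Cre (adjusted p = 1.70e-05). The Atp6v1b1Cre libraries of 292 and 280 CPM came from the earlier library series and those of 515 and 564 from a later one, the same split as in proximal tubule markers, and within the earlier series the rise was 1.60 (adjusted p = 5.28e-04), against 2.49 with Hoxb7Cre. It fell in ischemia by 1.56 ± 0.29 with Atp6v1b1Cre (adjusted p = 0.00243), and with Hoxb7Cre the difference of −0.54 ± 0.25 did not pass (adjusted p = 0.226). An unnamed gene, 9530052E02Rik, shares exon sequence with Irs2 and was at or under 1.14 CPM in every group mean.

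Pik3ip1 (chr11:3319241-3342971, plus strand), which binds PI3 kinase and holds it back, did not pass the test against control in male volume depletion. In male Hoxb7Cre pulldowns it stood at 16.1, 18.9, 20.2 and 13.1 CPM in controls, at 12.5, 16.0, 13.2 and 11.5 in ischemia, and at 22.3, 20.2 and 21.3 in volume depletion. In Atp6v1b1Cre males Pik3ip1 stood at 14.2, 15.5, 24.8 and 23.8 CPM in controls, at 18.6, 15.2 and 14.9 in ischemia, and at 23, 18.2, 20.5 and 21.0 in volume depletion. States overlapped in both, apart from volume depletion and ischemia with Hoxb7Cre, between which Pik3ip1 differed by 0.67 ± 0.18 (adjusted p = 0.00702). Against control, the difference in volume depletion was 0.32 with Hoxb7Cre (adjusted p = 0.188, 95% interval −0.07 to 0.71) and 0.09 with Atp6v1b1Cre (adjusted p = 0.794, 95% interval −0.27 to 0.45).

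**Figure D2:**
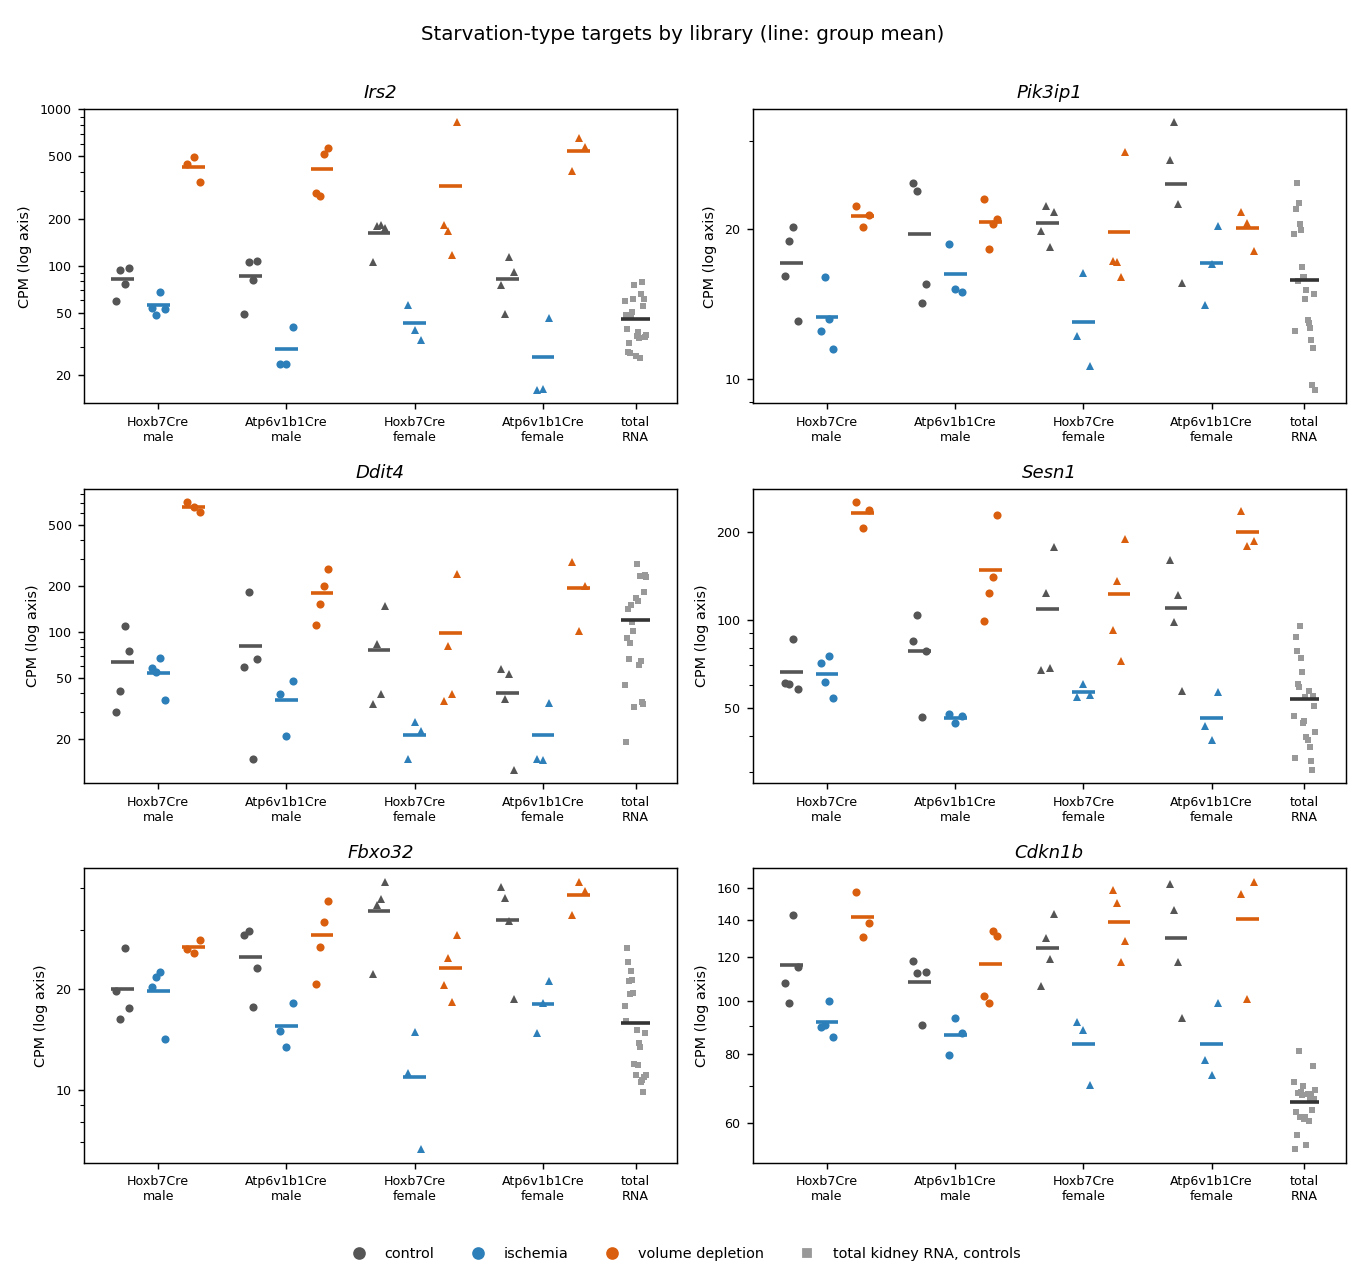
Level of Irs2, Pik3ip1, Ddit4, Sesn1, Fbxo32 and Cdkn1b in CPM (log axis) in every pulldown of 5.5 months, by driver, sex and treatment, 1 point a library (circles males, triangles females) with a line at each group mean, and total RNA of control kidneys as grey squares. Irs2, Ddit4 and Sesn1 separate volume depletion from control in the Hoxb7Cre males, while Pik3ip1, Fbxo32 and Cdkn1b overlap the controls there.

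Both brakes on mTORC1 rose in volume-depleted Hoxb7Cre males. Ddit4 (chr10:59949675-59951770, minus strand), which acts through the TSC complex and is induced by low oxygen, low energy and glucocorticoids, stood at 30.3, 41.2, 109.1 and 75.8 CPM in male Hoxb7Cre controls, at 58.2, 54.95, 67.8 and 36.0 in ischemia, and at 705, 660 and 604 in volume depletion. With Atp6v1b1Cre, Ddit4 stood at 14.8, 66.8, 59.6 and 183 CPM in controls, at 39.5, 21.0 and 47.7 in ischemia, and at 112, 154, 202 and 257 in volume depletion. Controls ranged widely for this member, and the control of 183 CPM reached into the volume depletion range. Ddit4 rose by 3.36 ± 0.53 with Hoxb7Cre (adjusted p = 3.98e-05), while the difference of 1.16 ± 0.48 with Atp6v1b1Cre did not pass (adjusted p = 0.106). Without that control, replicate 11, the Atp6v1b1Cre difference was 1.97 and passed (adjusted p = 0.00506), and within the earlier library series it was 1.71 and passed (adjusted p = 0.0256). Leaving out the control highest for Ddit4 favours a pass, so the first of these is a description.

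Sesn1 (chr10:41810574-41908436, plus strand), which restrains mTORC1 when leucine is scarce and is also a p53 target, stood at 60.9, 60.2, 85.8 and 57.9 CPM in male Hoxb7Cre controls, at 71.2, 61.1, 74.97 and 53.9 in ischemia, and at 254, 207 and 239 in volume depletion. Sesn1 under Atp6v1b1Cre stood at 46.5, 78.2, 84.97 and 103.8 CPM in controls, at 47.4, 44.3 and 47.0 in ischemia, and at 99.2, 123, 141 and 229 in volume depletion. Volume depletion was clear of the controls with Hoxb7Cre and overlapped the highest control with Atp6v1b1Cre. Sesn1 rose by 1.82 ± 0.24 with Hoxb7Cre (adjusted p = 4.34e-06) and by 0.93 ± 0.22 with Atp6v1b1Cre (adjusted p = 0.00703). Without the Atp6v1b1Cre library of 229 CPM, replicate 7, the latter was 0.63 and did not pass (adjusted p = 0.0506). In ischemia Sesn1 fell by 0.77 ± 0.24 with Atp6v1b1Cre (adjusted p = 0.0480), a call that was lost without control replicate 9, 10 or 11 or without any of ischemic replicates 1, 4 and 5 (adjusted p = 0.0849 to 0.153).

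The 2 effectors at the end of the circuit did not pass the test against control in male volume depletion. Fbxo32 (chr15:58175879-58214892, minus strand), the atrogin-1 subunit, stood at 19.7, 16.3, 26.6 and 17.6 CPM in male Hoxb7Cre controls, at 20.2, 21.8, 22.5 and 14.2 in ischemia, and at 26.4, 25.6 and 28.1 in volume depletion. Cdkn1b (chr6:134920401-134925525, plus strand), the p27 inhibitor of cyclin-dependent kinases, stood at 107.8, 99.2, 143 and 115 CPM in the same controls, at 89.6, 90.4, 99.9 and 85.9 in ischemia, and at 157, 131 and 139 in volume depletion. The control library of 26.6 and 143 CPM, replicate 4, reached the volume depletion range of both genes. Against control, the difference was 0.42 ± 0.21 for Fbxo32 (adjusted p = 0.127, 95% interval −0.02 to 0.86) and 0.30 ± 0.14 for Cdkn1b (adjusted p = 0.100, 95% interval 0.00 to 0.59). Without control replicate 4 both passed, at 0.59 (adjusted p = 0.0350) and 0.41 (adjusted p = 0.0222), and within the earlier library series they passed at 0.58 (adjusted p = 0.0192) and 0.47 (adjusted p = 0.00577). Replicate 4 was the highest control for both genes, so leaving it out favours a pass. With Atp6v1b1Cre the volume depletion differences were 0.23 ± 0.19 for Fbxo32 (adjusted p = 0.467) and 0.12 ± 0.13 for Cdkn1b (adjusted p = 0.561), and in ischemia Fbxo32 fell by 0.68 ± 0.21 (adjusted p = 0.0476) from controls at 17.7, 23.05, 28.9 and 29.8 CPM to 15.0, 13.5 and 18.2. That call was lost without control replicate 9, 10 or 11 or ischemic replicate 1 or 4 (adjusted p = 0.0714 to 0.185).

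In volume-depleted males labelled by Atp6v1b1Cre, 3 of the 9 members tested rose (Foxo1, Irs2 and Sesn1) and 1 fell (Foxo4), where 14.6% of all genes were called (8.11% higher and 6.47% lower), and 3 of the 9 did not overlap the controls (14.5% of all genes). In ischemia, which shares its controls with volume depletion, none of the 10 members was called with Hoxb7Cre (6.13% of all genes), 0 were with DESeq2 (13.5% of the genes it tested), 2 were at an unadjusted p under 0.05 (20.6% of all genes), and 5 of 10 fell with Atp6v1b1Cre (Foxo1, Foxo3, Irs2, Sesn1 and Fbxo32), where 8.51% of all genes were called (4.74% lower) and 3 of 10 did not overlap the controls (20.6% of all genes). Proximal tubule markers summed to 823 to 1151 CPM in these Atp6v1b1Cre ischemia libraries and to 1770 to 3568 in their controls, skeletal muscle markers to 0.359 to 0.985 and 1.17 to 2.76, and their part in the falls was not tested. No Hoxb7Cre member kept its ischemia libraries clear of the controls, against 15.9% of all genes. Set directly against each other, volume depletion exceeded ischemia for 7 of 9 members with each driver and was below it for Foxo4, where 33.3% of all genes were called with Hoxb7Cre (16.4% higher, 16.9% lower) and 29.3% with Atp6v1b1Cre (15.0% higher, 14.3% lower). The member not called was Fbxo32 with Hoxb7Cre (0.43, adjusted p = 0.117) and Pik3ip1 with Atp6v1b1Cre (0.37, adjusted p = 0.144). With Atp6v1b1Cre the Cdkn1b call (0.45, adjusted p = 0.0167) was lost without ischemic replicate 1 or volume depleted replicate 6 or 7 (adjusted p = 0.0587 to 0.114). Within the earlier library series Cdkn1b (0.23, adjusted p = 0.225) and Foxo6 (1.89, adjusted p = 0.065) did not pass, and in a fit of only the groups compared Cdkn1b (adjusted p = 0.0801) and Foxo4 (−0.79, adjusted p = 0.0516) did not. With Hoxb7Cre, Fbxo32 passed within the earlier series (0.46, adjusted p = 0.0219).

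**Figure D3:**
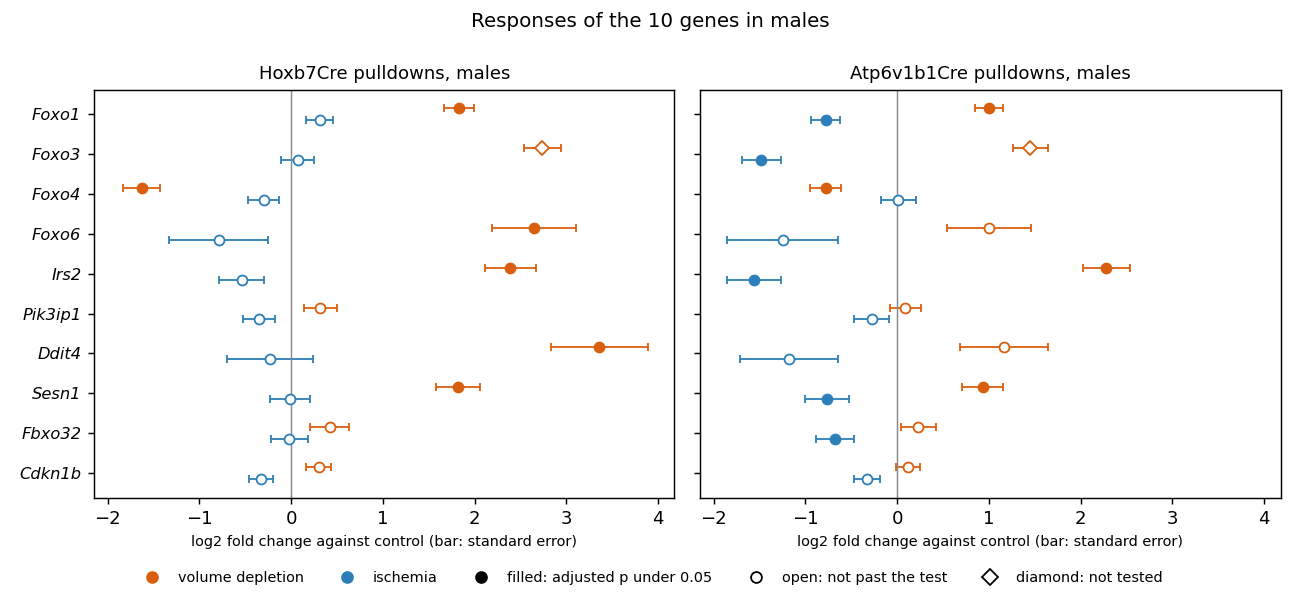
Log2 fold change ± SE of each member in males, for volume depletion and ischemia against control, by driver. Filled points passed the test at an adjusted p under 0.05, open points did not, and Foxo3 in volume depletion is drawn as untested. Whether or not they passed, all members other than Foxo4 lie above 0 in volume depletion and below 0 in ischemia with Atp6v1b1Cre. Foxo4 lies below 0 in volume depletion.

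Whether the drivers differed was tested in males, on the difference of the responses. In volume depletion only Foxo1 of the 9 members passed, its response being smaller with Atp6v1b1Cre than with Hoxb7Cre by 0.83 ± 0.22 on the log2 scale (adjusted p = 0.0307, 4.20% of all genes called, 2.16% lower), and the untested Foxo3 response was smaller by 1.29 ± 0.27. Foxo4 (0.85, adjusted p = 0.0634) and Ddit4 (−2.20, adjusted p = 0.0728) did not pass. The Foxo1 difference did not pass without Atp6v1b1Cre control replicate 9 or 11 or volume depleted replicate 2, or without Hoxb7Cre control replicate 2 or 3 or volume depleted replicate 4 (adjusted p = 0.0575 to 0.0926). Irs2 showed a difference of −0.11 ± 0.37 (adjusted p = 0.976). In ischemia 2 of 10 passed, with 7.79% of all genes called (4.11% lower). The response of Foxo1 was lower with Atp6v1b1Cre by 1.08 ± 0.22 (adjusted p = 0.00662) and that of Foxo3 by 1.55 ± 0.27 (adjusted p = 0.00339). In females the driver difference was not tested. Their 95% intervals with Hoxb7Cre and Atp6v1b1Cre in ischemia were −1.68 to −0.30 and −1.61 to −0.24 for Foxo1, and −2.64 to −0.73 and −2.41 to −0.52 for Foxo3. In volume depletion those for Foxo1 were −0.33 to 0.90 and 0.35 to 1.68, which overlap, so no order of the drivers is read from them.

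Several facts about the libraries moved with these states. All male Hoxb7Cre injury pulldowns came from the earlier library number series, against 2 of the 4 controls, and within that series the Hoxb7Cre calls in volume depletion were all kept (Foxo1 2.06, Foxo4 −1.78, Foxo6 2.66, Irs2 2.49, Ddit4 4.21 and Sesn1 1.96). Summed principal cell markers of male Hoxb7Cre pulldowns were 2694 to 3499 CPM in controls, 993 to 1231 in ischemia and 1103 to 1197 in volume depletion. Of 12 marker lists, 5 lay clear of the controls in male Hoxb7Cre volume depletion and 4 with Atp6v1b1Cre. Of all single genes, 39.5% and 14.5% did not overlap the controls in these comparisons. Summed thick ascending limb markers (4 genes) were 1709 to 2865 CPM in those controls and 874 to 1007 in volume depletion, distal convoluted tubule markers (3 genes) were 259 to 458 and 152 to 213, and endothelium markers (5 genes) were 89.8 to 170 and 188 to 245. With Atp6v1b1Cre, intercalated cell markers were 886 to 1219 CPM in male controls and 577 to 778 in volume depletion, distal convoluted tubule markers were 358 to 695 and 133 to 224, fat markers were 51.1 to 108.1 and 37.2 to 44.3, and lymphocyte markers were 3.48 to 7.21 and 1.26 to 2.56. In Hoxb7Cre ischemia, distal convoluted tubule markers (489 to 594 CPM) lay above and fat markers (17.6 to 40.3, controls 56.2 to 145) below the controls. The part of these markers in the members' differences was not tested. The 5 markers of skeletal muscle, the tissue in which Fbxo32 is best known, summed to at most 2.76 CPM in these male pulldowns, with 1.91 to 2.43 in Hoxb7Cre volume depletion against 0.388 to 1.14 in controls, and Myh4 was at 0 in all of them.

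No tested member passed in volume-depleted Hoxb7Cre females. Foxo3 stood at 195, 162, 203 and 147 CPM in female Hoxb7Cre controls and at 181, 296, 178 and 901 in volume depletion. Irs2 stood at 105.95, 181, 175 and 180 CPM in controls and at 181, 167, 117 and 824 in volume depletion. Of the 4 volume-depleted females, replicate 5 was far above the controls for both genes, and replicate 2 was above them for Foxo3 only. None of the 9 members tested was called in this comparison (0.109% of all genes), 0 were with DESeq2 (0.613% of the genes it tested), and 2 were at an unadjusted p under 0.05 (7.91% of all genes). None kept its groups apart (3.51% of all genes), and the differences were 1.14 ± 0.40 for Foxo3 (untested), 1.00 ± 0.47 for Irs2 (adjusted p = 0.613) and 0.28 ± 0.29 for Foxo1 (adjusted p = 0.823, 95% interval −0.33 to 0.90). Without replicate 5 the differences were 0.30 for Foxo3, −0.06 for Irs2 (adjusted p = 0.994) and −0.05 for Foxo1 (adjusted p = 0.989).

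The response of the Hoxb7Cre members was larger in males than in females for 4 of the 9 tested and more negative for 1, where 16.0% of all genes were called (7.48% higher, 8.51% lower). Marker sums also moved unlike between the sexes. In volume-depleted females principal cell markers (1147 to 2148 CPM, controls 1075 to 2477) and thick ascending limb markers (1522 to 3056, controls 1201 to 2787) overlapped the controls, whereas both lay below them in males. Of the 12 marker lists, that of lymphocytes alone lay clear of the controls in these females (0.603 to 0.91 CPM, controls 1.11 to 7.29). Of all single genes, 3.51% did not overlap the controls there. All 4 volume-depleted females, but 1 of the 4 female controls, came from the earlier library series. The part of these facts in the difference between the sexes was not tested. Foxo1 differed by 1.55 ± 0.35 (adjusted p = 0.00433), Ddit4 by 2.99 ± 0.82 (adjusted p = 0.0144), Sesn1 by 1.66 ± 0.42 (adjusted p = 0.00918) and Fbxo32 by 0.99 ± 0.34 (adjusted p = 0.0410). The Fbxo32 difference is made of 0.42 in males and −0.57 in females, neither of which passed by itself, and the call was lost on leaving out any 1 control or volume depletion library (adjusted p = 0.0503 to 0.098) other than control female replicate 1, control male replicate 4 and volume depleted female replicate 5. Foxo4 differed by −1.41 ± 0.33 (adjusted p = 0.00593), with volume-depleted females at 32.97, 22.3, 34.6 and 11.6 CPM, the last of them replicate 5. Foxo3, untested, differed by 1.61 ± 0.47, and by 2.44 without that female. Irs2 did not pass with all libraries (1.40, adjusted p = 0.0915) and passed without replicate 5 (2.46, adjusted p = 1.75e-04). Replicate 5 was the highest of its group for Irs2, and leaving out a library by the gene's own level favours such a pass. With Atp6v1b1Cre none of the 9 members differed between the sexes, where 0.00% of all genes were called, 0 did with DESeq2 (0.272% of the genes it tested) and 0 at an unadjusted p under 0.05 (8.29% of all genes).

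In volume-depleted females labelled by Atp6v1b1Cre, 4 of the 9 members tested rose and 1 fell. Foxo3 stood at 191, 119, 93.7 and 103.4 CPM in controls and at 587, 623 and 414 in volume depletion. Irs2 stood at 113, 90.8, 75.4 and 49.3 CPM in controls and at 405, 652 and 574 in volume depletion. Volume depletion lay above every control for both. Of all genes 18.0% were called (9.20% higher, 8.81% lower), and 6 of the 9 members did not overlap the controls (31.2% of all genes). Foxo3, untested, was higher by 2.09 ± 0.43. Irs2 rose by 2.73 ± 0.52 (adjusted p = 0.00337), Ddit4 by 2.29 ± 0.61 (adjusted p = 0.0156), Foxo6 by 2.05 ± 0.71 (adjusted p = 0.0474) and Foxo1 by 1.02 ± 0.31 (adjusted p = 0.0287). Foxo4 fell by 1.42 ± 0.29 (adjusted p = 0.00441), from 30.2, 37.4, 30.96 and 41.3 CPM in controls to 12.7, 10.8 and 15.8. Single libraries decided 3 of these calls. Foxo6 did not pass without control replicate 7, 8 or 13 or any of the volume depleted replicates 3, 4 and 5 (adjusted p = 0.0648 to 0.138), Foxo1 without control replicate 8 or 13 or volume depleted replicate 3 or 4 (adjusted p = 0.064 to 0.0949), and Ddit4 without volume depleted replicate 3 (1.92, adjusted p = 0.0747). Intercalated cell markers summed to 581 to 910 CPM in these volume depletion libraries and to 1127 to 1668 in their controls, thick ascending limb markers to 1021 to 1440 and 1480 to 2547, and macrophage markers to 58.3 to 90.1 and 99.5 to 149. Volume depleted replicate 5 stood apart in endothelium (27.03 CPM, the others 141 and 173) and glomerulus markers (34.1 CPM, the others 168 and 186), and also in proximal tubule (1960 CPM, the others 4365 and 4959), principal cell (1025 CPM, the others 581 and 575) and intercalated cell markers (910 CPM, the others 581 and 650). Without this library 4 members and 12.1% of all genes were called, and Foxo3 was higher by 2.25. The part of these markers in the differences was not tested.

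In female Hoxb7Cre ischemia the median log2 fold change of the 10 members was −1.0, against −0.01 over all genes. Foxo3 stood at 78.3, 47.9 and 37.4 CPM, below every control, and fell by 1.69 ± 0.45 (adjusted p = 0.0471). Fbxo32 stood at 11.2, 14.9 and 6.64 CPM against 22.3, 37.2, 41.7 and 35.8 in controls and fell by 1.64 ± 0.29 (adjusted p = 0.0122). These were the 2 members called of 10, where 3.14% of all genes were called (1.72% lower), and 8 of the 10 had no overlap with the controls, against 22.8% of all genes. The Foxo3 call was lost without control replicate 6, 9 or 10 or any 1 ischemia library (adjusted p = 0.0711 to 0.255), and the Fbxo32 call without control replicate 9 or 10 or ischemic replicate 3 (adjusted p = 0.052 to 0.116), while without control replicate 1 the count of members called was 7, with 14.0% of all genes called. All 3 ischemia libraries, but 1 of the 4 controls, came from the earlier library series, and with the series as a covariate neither call was kept (Foxo3 −1.87, adjusted p = 0.16, and Fbxo32 −1.22, adjusted p = 0.0939). Thick ascending limb markers summed to 3660 to 4941 CPM in ischemia and 1201 to 2787 in controls, and distal convoluted tubule markers to 656 to 720 and 137 to 638, and their part in the falls was not tested. With Atp6v1b1Cre none of the 10 was called by edgeR (2.66% of all genes) and 7 were at an unadjusted p under 0.05 (20.1% of all genes), while DESeq2 called 6 lower (10.8% of the genes it tested), and 3 did not overlap the controls (17.1% of all genes). Foxo3 there stood at 44.1, 34.02 and 62.1 CPM, below every control (−1.46 ± 0.44, adjusted p = 0.0755). Without ischemic replicate 6, which stood apart on the first component, 5 members were called lower with 7.66% of all genes called, Foxo3 among the 5 (−1.71, adjusted p = 0.0499). Markers that lay below the controls there were those of lymphocytes (1.35 to 2.07 CPM, controls 2.64 to 5.17) and skeletal muscle (0.325 to 0.62, controls 1.06 to 1.39), and their part was not tested.

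**Figure D4:**
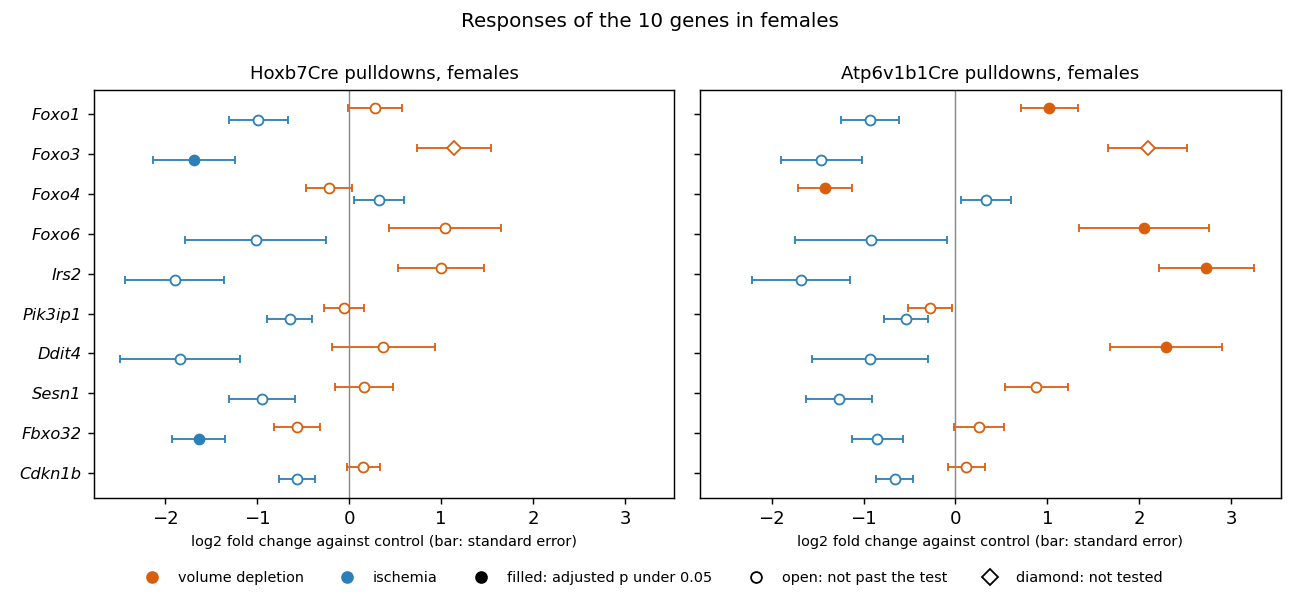
Log2 fold change ± SE of each member in females, for volume depletion and ischemia against control, by driver. Filled points passed the test at an adjusted p under 0.05, open points did not, and Foxo3 in volume depletion is drawn as untested. With Atp6v1b1Cre, Foxo4 and Pik3ip1 lie below 0 and the other members above 0 in volume depletion, and with Hoxb7Cre no point is filled in volume depletion. In ischemia 9 of the 10 estimates lie below 0 and Foxo4 above 0 with either driver, and the filled points are Foxo3 and Fbxo32 with Hoxb7Cre.

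Over the 12 group means of driver, state and sex, Foxo3 ran from 46.2 ± 14.2 CPM (SD, n = 3) in Atp6v1b1Cre male ischemia to 686 ± 113 (SD, n = 3) in Hoxb7Cre male volume depletion. The 3 lowest groups were ischemia, the 4 highest were volume depletion, and the controls lay between them with the male Hoxb7Cre ischemia group. Neighbouring groups in this order overlapped, with 1 exception, the step from female Hoxb7Cre controls (177 ± 26.7, n = 4) to male Atp6v1b1Cre volume depletion (348 ± 21.3, n = 4). That step does not part all controls from volume depletion. Female Hoxb7Cre volume depletion, higher in the order, ran from 178 to 901 CPM and overlapped the female Hoxb7Cre controls (147 to 203). By the Pearson correlation of mean log2 CPM over these 12 groups, the 5 genes most like Foxo3 of 9694 ranked were Jade1 (0.992), Plk3 (0.988), Dusp1 (0.988), Abtb2 (0.987) and Fzd5 (0.986). Among the members, Irs2 (0.979, rank 26), Sesn1 (0.976, rank 46) and Foxo1 (0.973, rank 66) ran close to Foxo3. Ddit4 (0.920, rank 597) and Cdkn1b (0.880, rank 975) did less so, and Fbxo32 (0.745, rank 1810) and Pik3ip1 (0.623, rank 2334) least. Foxo4 ran opposite (−0.920, rank 9264). Foxo6 was under the mean of 10 CPM required and was not ranked. The groups share their preparation and their controls, and the Foxo3 means include the volume depletion rise by which it was chosen. These correlations are descriptions only.

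In uninjured kidneys, labelled cells were set against the whole kidney. Foxo4 ran from 23.9 to 42.2 CPM (median 33.4) in 10 Hoxb7Cre control pulldowns and from 52.2 to 67.9 (median 60.1) in 21 total RNA libraries, without overlap. Cdkn1b ran from 99.2 to 143 CPM (median 117) in the pulldowns and from 53.8 to 81.2 (median 66.4) in total RNA, also without overlap but in the other direction. Foxo3 ran from 71.98 to 203 CPM (median 118) against 48.9 to 106.4 (median 63.3), with overlap. With Hoxb7Cre 7 of the 10 members were higher in the pulldown and 1 lower, where 66.6% of all genes were called (35.6% higher, 31.1% lower), and the numbers were the same with Atp6v1b1Cre, where 63.8% were called (34.4% higher, 29.4% lower). Foxo4 was lower by 0.84 ± 0.07 (adjusted p = 2.20e-14) with Hoxb7Cre, and Cdkn1b was higher by 0.91 ± 0.07 (adjusted p = 8.95e-16), Foxo3 by 0.99 ± 0.13 (adjusted p = 5.81e-09) and Irs2 by 1.28 ± 0.19 (adjusted p = 5.44e-08). The median over all genes was 0.107 in this comparison. A pulldown holds RNA made within hours and total RNA all RNA, so kind of cell and age of RNA cannot be told apart here. Capture may also favour uracil-rich RNA, as the study cautions, and its part was not tested. The 21 control pulldowns and 21 total RNA libraries are alike in their numbers by driver, sex, age and library series. For this comparison the study counts only as many mice as there are control pulldowns, so that pulldown and total RNA libraries share mice. The labels do not say which, though by library number both sets run in the same order of driver, sex and age. No paired fit was run. The test treats all 42 libraries as separate, an n above the number of mice, and its p-values take no account of the sharing. Between the drivers, none of the 10 members differed in controls (9.93% of all genes), 0 did with DESeq2 (12.9% of the genes it tested) and 0 at an unadjusted p under 0.05 (20.5% of all genes), and the 95% interval for Foxo3 was −0.29 to 0.34.

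The wider circuit was read from lists of other genes, which were chosen with earlier results of these data known. Of 28 other genes known as FoxO targets, 15 rose and 2 fell in male Hoxb7Cre volume depletion (all genes 17.9% and 17.6%, median log2 fold change 0.73, all genes 0.00), and 9 rose and 3 fell with Atp6v1b1Cre (all genes 8.11% and 6.47%, median 0.31). Gadd45b, a stress gene that slows the cell cycle, rose by 4.05 with Hoxb7Cre (9.95 ± 4.85 CPM in controls, n = 4, and 164 ± 34.5 in volume depletion, n = 3, adjusted p = 1.77e-06) and by 2.43 with Atp6v1b1Cre (adjusted p = 0.00110). Klf2, a quiescence factor, rose by 3.36 with Hoxb7Cre (adjusted p = 1.68e-06), and Pdk4, the fasting kinase that closes pyruvate dehydrogenase, rose by 2.24 with Atp6v1b1Cre, from 555 ± 151 to 2597 ± 337 CPM (SD, n = 4 each, adjusted p = 4.13e-05). Ccnd1, cyclin D1, which FoxO factors repress, fell by 1.33 with Hoxb7Cre (adjusted p = 9.16e-05) and by 1.31 with Atp6v1b1Cre (adjusted p = 3.27e-04). Igfbp1, a liver target of Foxo1 that insulin represses, fell by 1.12 with Atp6v1b1Cre (adjusted p = 0.0274), and in ischemia by 1.30 with Hoxb7Cre (adjusted p = 0.0247) and by 1.71 with Atp6v1b1Cre (adjusted p = 0.00853). In ischemia the list counted 1 rise and 2 falls with Hoxb7Cre (6.13% of all genes called), and 1 and 4 with Atp6v1b1Cre (8.51% of all genes called, median −0.52), Klf15, a fasting regulator of amino acid metabolism, falling by 1.59 (adjusted p = 0.00243).

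Upstream of FoxO, of 19 genes of the insulin, PI3 kinase and Akt axis 6 rose and 4 fell in male Hoxb7Cre volume depletion, where 17.9% of all genes rose and 17.6% fell (median 0.03), and 3 and 1 with Atp6v1b1Cre, where 14.6% of all genes were called (median 0.01). Trib3, a pseudokinase that binds Akt, rose by 4.32 with Hoxb7Cre (3.28 ± 1.25 CPM, n = 4, to 65.5 ± 49.6, n = 3, adjusted p = 2.12e-06) and by 1.48 with Atp6v1b1Cre (adjusted p = 0.0314). Inpp5d, the SHIP1 lipid phosphatase, rose by 1.98 with Hoxb7Cre (adjusted p = 1.94e-07). Sgk1, the aldosterone-induced kinase that phosphorylates Foxo3, rose by 2.06 with Atp6v1b1Cre, from 423 ± 171 to 1745 ± 131 CPM (SD, n = 4 each, adjusted p = 1.04e-04). In ischemia this list counted 1 rise and 1 fall with Hoxb7Cre and 0 and 4 with Atp6v1b1Cre (median −0.36), where 6.13% and 8.51% of all genes were called.

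Another 3 lists were read against the same background, 35.5% of all genes called with Hoxb7Cre and 14.6% with Atp6v1b1Cre in volume depletion, and 6.13% and 8.51% in ischemia. Of 10 genes that modify FoxO proteins, 4 rose and 3 fell in male Hoxb7Cre volume depletion (median 0.14), and none was called with Atp6v1b1Cre. In ischemia none of these was called with Hoxb7Cre (median 0.19), and 1 rose and 3 fell with Atp6v1b1Cre (median −0.19). Of 17 mTOR complex and nutrient sensing genes, 2 rose and 5 fell with Hoxb7Cre (median −0.15) and 1 fell with Atp6v1b1Cre, a share near that of all genes with Hoxb7Cre. Sesn2, the stress-induced sestrin, rose by 1.85 with Hoxb7Cre (84.4 ± 11.7 CPM, n = 4, to 304 ± 59.6, n = 3, adjusted p = 1.89e-06), and Rptor, the scaffold that defines mTORC1, fell by 1.48 (adjusted p = 8.68e-04). In ischemia none of the 17 was called with Hoxb7Cre (median −0.13), and 5 fell with Atp6v1b1Cre (median −0.21), Sesn2 by 1.24 (adjusted p = 0.00249) and Mtor by 1.04 (adjusted p = 0.0190). Of 18 autophagy genes, 6 rose and 3 fell in Hoxb7Cre volume depletion (median 0.16), with Tfeb, the lysosomal transcription factor, higher by 1.12 (adjusted p = 1.87e-05) and Pik3c3, the class III PI3 kinase Vps34, lower by 1.36 (adjusted p = 4.99e-06). The autophagy list counted 1 rise and 1 fall in Atp6v1b1Cre volume depletion, 5 falls in Hoxb7Cre ischemia (median −0.28) and 3 falls in Atp6v1b1Cre ischemia.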

How the data were processed

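Per the labels and the study's methods, RNA pulled down from labelled cells and total kidney RNA were sequenced as poly(A) libraries. The authors trimmed reads with Trimmomatic 0.36, aligned them to mm10 with STAR 2.5.3a and counted them per gene with HTSeq 0.6.1p2, after CASAVA 1.8.2. The annotation version is not given in the sources used here. The kit does not mark strand, so reads of overlapping genes cannot be told apart. The authors deposited raw counts for 24411 genes in 69 libraries. Genes with at least 2 counts over all libraries (21175) were tested with edgeR 4.0.16 (TMM, quasi-likelihood, R 4.3.3) in separate fits of 22 male, 21 female, 43 male and female, and 42 control libraries, with Benjamini-Hochberg adjustment. SE is the size of the log2 fold change over the square root of F. CPM used a single TMM scaling over the 69 libraries, and lengths came from GENCODE vM21. The male, female and control fits recovered most known changes in counts simulated with a single spread for all genes, smaller than that of the female fit. Only well-counted genes were changed there, so genes as low as Foxo6 were not covered. DESeq2 1.42.0, other filters and scalings, library series, a replicate block and leaving out each library were tried. All members were named, and in each list up to 2 genes of highest and 2 of lowest change among DEGs. Foxo3 was given no test in volume depletion, in females too, where 1 had been planned. The members and lists were chosen with earlier results of these data known.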

Additional observations from a re-analysis of the deposited data

Results flagged for a closer look

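Single libraries stood apart in 10 of the 110 sets of member levels tested for this, and chance alone sets apart about 1 in 20 groups. In each, the gap of the highest or lowest library to its neighbour was large beside the range of its group. In the Hoxb7Cre volume-depleted females, replicate 5 was high for Foxo3 (901 CPM), Irs2 (824 CPM) and Pik3ip1 (28.6 CPM). The Hoxb7Cre control female replicate 1 was low for Irs2 (105.95 CPM), and the Hoxb7Cre control male replicate 4 was high for Sesn1 (85.8 CPM). Among total RNA libraries, Cdkn1b was high in male replicate 7 of the Atp6v1b1Cre mice (76.1 CPM), Foxo1 in female replicate 5 (126 CPM), Irs2 in male replicate 3 (78.8 CPM) and Foxo4 in male replicate 10 (61.2 CPM), and Pik3ip1 was low in female replicate 12 (12.5 CPM).

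Responses differed between groups by a test of the difference. Between the drivers in males, the volume depletion response of Foxo1 differed by −0.83, and the ischemia responses of Foxo1 and Foxo3 by −1.08 and −1.55 (Atp6v1b1Cre minus Hoxb7Cre, log2 scale). Between the sexes with Hoxb7Cre, the volume depletion responses differed, males minus females, by 1.55 for Foxo1, −1.41 for Foxo4, 2.99 for Ddit4, 1.66 for Sesn1 and 0.99 for Fbxo32.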

How the results depend on the processing

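Over 2610 pairs of a member's comparison and a setting, 2321 kept direction and side of the threshold, 120 that passed under neither setting turned sign, 89 lost a call, 74 gained one, 3 moved by more than the spread, and 3 that were called or untested turned direction. Of the 120, 7 were at least 1 in size before, 2 of them (Foxo6 and Irs2 in female Hoxb7Cre volume depletion) without volume depleted replicate 5 and the others under the replicate block. The largest shift of the all-gene median under another scaling was 0.02 on the log2 scale. Of 278 recounts of members called, 224 stayed within 1.5 times. Depth limits Foxo6 above all, which had 1 to 15 counts in the male control and ischemia libraries. Leaving out single libraries gave these ranges of members called. In males they were 6 to 8 (Hoxb7Cre volume depletion), 0 (Hoxb7Cre ischemia), 8 (Hoxb7Cre volume depletion against ischemia), 3 to 5, 2 to 6 and 7 to 8 (the same with Atp6v1b1Cre), and for the driver differences 0 to 3 (volume depletion) and 2 to 3 (ischemia). In females they were 0 and 0 to 7 (Hoxb7Cre volume depletion, ischemia) and 2 to 6 and 0 to 5 (Atp6v1b1Cre), and for the sex difference 4 to 7 (Hoxb7Cre) and 0 (Atp6v1b1Cre). The share of all genes called ranged from 28.7% to 34.8%, 3.05% to 5.31% and 25.5% to 30.1% in these male Hoxb7Cre comparisons, from 7.74% to 21.5%, 1.94% to 9.64% and 19.7% to 31.2% in the male Atp6v1b1Cre ones, from 1.94% to 4.88% and 2.83% to 11.5% for the driver differences, from 0.00472% to 0.453% in female Hoxb7Cre volume depletion, from 0.0331% to 14.0% in female Hoxb7Cre ischemia, from 7.49% to 15.9% and 0.17% to 7.66% in female Atp6v1b1Cre volume depletion and ischemia, and from 7.77% to 28% and 0% to 0.00472% for the sex differences. With a log2 fold change of at least 1 also required, Atp6v1b1Cre counts were 2 (volume depletion, from 4), 2 (ischemia, from 5) and 5 (volume depletion against ischemia, from 8), the driver difference 0, and pulldown against total RNA 1 and 2 (from 8 each), where 5.15%, 2.82%, 11.6%, 2.93%, 32.5% and 27.7% of all genes were called. DESeq2 gave 3 for the driver difference in volume depletion (from 1), 5 in female Hoxb7Cre ischemia (from 2) and 6 in female Atp6v1b1Cre ischemia (from 0), where it called 9.86%, 14.2% and 10.8% of the genes it tested. In a fit of only the groups compared, Atp6v1b1Cre counts were 2 (volume depletion, 6.19% of all genes against 14.6% before) and 3 (ischemia, 7.00% against 8.51%), and with no filter 3 (ischemia, 8.69%). Within the earlier library series they were 1 (Hoxb7Cre ischemia, from 0, 10.9% of all genes) and 3 (Atp6v1b1Cre ischemia, 13.0%). With the series as a covariate they were 1 in Hoxb7Cre ischemia (14.5% of all genes against 6.13% before), 5 for both driver differences (12.5% against 4.20% in volume depletion, 14.7% against 7.79% in ischemia) and 0 in female Hoxb7Cre ischemia (0.109% against 3.14%). A fit of both sexes gave 3 in Hoxb7Cre ischemia (Irs2, Pik3ip1 and Cdkn1b), with 2.95% of all genes called. The cause of these changes was not tested.

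Replicate numbers did not pair the libraries, since the groups compared share 0 to 3 numbers and same-numbered libraries correlated between −0.545 and 0.408. With a replicate block, residual degrees of freedom fell to 7 from 16 in males. Block counts were 6 and 5 (Hoxb7Cre and Atp6v1b1Cre volume depletion), 8 each (volume depletion against ischemia), 2 and 0 (ischemia), where 21.0%, 15.2%, 31.7%, 24.2%, 4.15% and 0% of all genes were called. They were 0 for both driver differences, 0 in female Hoxb7Cre ischemia, 0 in female Atp6v1b1Cre volume depletion and 0 for the Hoxb7Cre sex difference. In those with 0, Atp6v1b1Cre ischemia included, the block called 0 to 53 of all 21175 genes, so they say nothing of the members. Under the block, Atp6v1b1Cre ischemia turned to 0.16 for Sesn1 (adjusted p = 0.949) and 0.00 for Fbxo32 (adjusted p = 1), and the untested Foxo3 sex difference with Atp6v1b1Cre turned to 0.16. Of differences that passed in neither fit, Ddit4 turned from −1.18 to 1.48 in Atp6v1b1Cre ischemia and from −2.20 to 0.96 for the driver difference in volume depletion.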

Other observations

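Control pulldowns of 3 months entered no main comparison with injury. Those of Atp6v1b1Cre males were added to the controls in another setting, a fit of 25 males. In that fit Cdkn1b passed as lower in Atp6v1b1Cre ischemia, where 11.6% of all genes were called. The pulldowns of 3 months held Foxo4 at 35.6 to 39.6 CPM with Hoxb7Cre (2 libraries), against 23.9 to 42.2 in the 8 controls of 5.5 months. With Atp6v1b1Cre they held it at 25.4 to 38.3 (3 libraries), against 29.1 to 41.3 in 8. Ddit4 reached 263 CPM in Atp6v1b1Cre replicate 15 of that age, against 29.9 and 64.0 in the others. Among total RNA libraries Ddit4 ran from 19.1 to 280 CPM.

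Of the other FoxO targets, Cdkn1a (p21), Txnip, Trib1 and Klf6, chosen for mention after their values were seen, rose in male volume depletion with both drivers. Cdkn1a rose by 2.90 with Hoxb7Cre (edgeR, adjusted p = 7.88e-07) and by 1.43 with Atp6v1b1Cre (adjusted p = 0.00257). Txnip, which limits glucose uptake, rose by 2.35 and 1.88 (adjusted p = 6.17e-05 and 0.00167), Trib1 by 2.66 and 1.90 (adjusted p = 1.13e-05 and 0.00124) and Klf6 by 1.95 and 1.49 (adjusted p = 3.83e-06 and 3.42e-04). Trim63 (MuRF1), the muscle ubiquitin ligase usually named beside Fbxo32, rose by 1.86 with Hoxb7Cre (adjusted p = 0.00142), and its difference with Atp6v1b1Cre was 0.07 (adjusted p = 0.982). Summed skeletal muscle markers also lay above the controls in Hoxb7Cre volume depletion (1.91 to 2.43 CPM, controls 0.388 to 1.14) and overlapped them with Atp6v1b1Cre, and their part in the Trim63 rise was not tested. The gluconeogenic target Pck1 rose by 0.67 with Hoxb7Cre (adjusted p = 0.0402), and its difference with Atp6v1b1Cre was 0.11 (adjusted p = 0.812). Besides Ccnd1 and Igfbp1, the falls in this list were Prdx3, a mitochondrial peroxidase, by 0.46 with Hoxb7Cre (adjusted p = 0.00214) and Cat, catalase, by 0.76 with Atp6v1b1Cre (adjusted p = 0.0174). These 4 genes too were chosen for mention after their values were seen.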
